A study of Mus musculus with 24 samples.

Results

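The 10 enzymes described here turn cholesterol into conjugated bile acids in the liver: Cyp7a1, Cyp8b1, Cyp27a1, Cyp7b1, Cyp39a1, Hsd3b7, Akr1d1, Amacr, Slc27a5 and Baat. They were chosen as a pathway by name, out of 19938 genes that the array annotation pairs with probe sets of their own, and each of the 10 had exactly 1 probe set with 1 symbol. RNA came from the livers of 24 male mice, aged 24 weeks and fed standard chow, with 1 Affymetrix Mouse Gene 1.0 ST array per mouse. The study asked how hepatic expression responds to the transcription factor SREBP-1a and to the loss of its MAPK phosphorylation sites. The mice formed 3 groups of 8. The controls were C57Bl6 mice without a transgene. The alb-SREBP-1a mice carried, on a C57Bl6 background, an HA-tagged transgene for the mature N-terminal part of human SREBP-1a, which the albumin promoter expresses in the liver. The alb-SREBP-1a∆P mice carried the same construct on the same background with its MAPK sites mutated. Both transgenes are driven from a hepatocyte promoter and encode a form that needs no release from the membrane, and the sources used here do not give how many founder lines stand behind each group. The transgene itself was not checked on these arrays.

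Bile acids are made from cholesterol along a classical route that begins with Cyp7a1 and an alternative route that begins with Cyp27a1. The oxysterols of the alternative route are then hydroxylated by Cyp7b1 or, for a brain-derived oxysterol, by Cyp39a1. Hsd3b7 and Akr1d1 change the steroid ring, and Cyp8b1 adds the hydroxyl group that sets apart cholic acid. Amacr prepares the side chain for shortening in the peroxisome. Slc27a5 joins bile acids to coenzyme A, and Baat joins them to taurine or glycine. Cyp7a1 is rate limiting and is held back by bile acids through the receptor FXR and through an intestinal growth factor that binds Fgfr4 and Klb on hepatocytes. It is also one of the liver's best known rhythmic genes.

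The stretch before the transcription start is shown for the enzyme that was higher in alb-SREBP-1a∆P liver, Cyp8b1, and for an enzyme that was lower there, Akr1d1. RefSeq promoters of build GRCm38.p6 matched 4 of the 10 enzymes, namely Cyp8b1, Cyp27a1, Hsd3b7 and Akr1d1. Both sequences run 5′ to 3′ on the gene's own strand over the 250 bases before the start, and capitals mark matches to a searched motif. Cyp8b1 lies at chr9:121916306-121916555 on the minus strand and Akr1d1 at chr6:37529923-37530172 on the plus strand.
Cyp8b1: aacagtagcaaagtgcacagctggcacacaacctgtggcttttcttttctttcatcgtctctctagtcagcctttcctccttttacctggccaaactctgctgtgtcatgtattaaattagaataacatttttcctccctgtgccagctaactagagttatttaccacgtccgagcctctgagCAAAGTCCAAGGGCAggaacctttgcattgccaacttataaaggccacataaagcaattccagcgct
Akr1d1: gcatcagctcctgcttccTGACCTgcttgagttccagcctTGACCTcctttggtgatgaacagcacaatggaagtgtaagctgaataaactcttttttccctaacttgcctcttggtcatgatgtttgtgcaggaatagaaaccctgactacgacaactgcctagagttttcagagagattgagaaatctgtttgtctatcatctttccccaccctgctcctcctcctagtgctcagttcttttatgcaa

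A set of 6 motifs was searched on both strands: the E-box CACGTG, the D-box TTANGTAA, the LRH-1 type element CAAGGNCA, the half-site AGGTCA of ROR and REV-ERB factors, the sterol regulatory element TCACNCCAC and the HNF4 type element CAAAGTCCA. The half-site was searched without flanking bases and is not particular to ROR and REV-ERB factors. The HNF4 type element was added after the Cyp8b1 sequence had been seen. In Cyp8b1 the capitals hold CAAAGTCCA, which begins 67 bases before the start, and CAAGGGCA, which begins 60 bases before the start and shares its opening bases with the other match. In Akr1d1 the capitals are both TGACCT, the reverse complement of AGGTCA, beginning 232 and 210 bases before the start. The windows of Cyp27a1 and Hsd3b7 held none of the letters searched. Of 32851 RefSeq promoter windows of this length, 6.02% held the E-box, 2.06% the D-box, 5.53% the LRH-1 type element, 14.0% AGGTCA, 1.05% the sterol regulatory element and 0.384% the HNF4 type element. A match is a description of the letters and not of binding.

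Values below are log2 levels by RMA, as deposited, and a change is the difference of 2 genotype means ± standard error (SE) from limma. An enzyme rose or fell where its p, adjusted by Benjamini-Hochberg over all 35556 probe sets, was under 0.05. The probe sets of different genes are not compared with each other in level. Across the series, the spread of the log2 values within an array was smaller in alb-SREBP-1a∆P (SD 2.06 ± 0.03, n = 8) than in C57Bl6 (2.22 ± 0.02) or alb-SREBP-1a (2.19 ± 0.04). By an exact two-sided permutation test over all splits of 8 and 8 arrays both differences had p = 0.000155, the smallest that these splits allow. In the brightest 10% of probe sets, where 9 of the 10 enzymes lay (Cyp39a1 lay in the 10% after it), the median change was −0.20 against C57Bl6 and −0.20 against alb-SREBP-1a, and −0.01 for alb-SREBP-1a against C57Bl6. Scaling moved this background: over all probe sets the median alb-SREBP-1a∆P change against C57Bl6 was 0.11 as deposited, −0.03 after quantile normalization, −0.05 when arrays were centred on their medians and 0.00 after cyclic loess. The calls in that comparison, 9584 higher and 7193 lower as deposited, became 4586 and 6701, 4780 and 10194, and 5690 and 5427. Between the lines they were 8105 and 7607 as deposited, 3421 and 4898 after quantile normalization and 3582 and 11410 with centred arrays. For alb-SREBP-1a against C57Bl6 they were 2408 and 1416, and 2134 and 2001 after quantile normalization.

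In alb-SREBP-1a∆P liver, 8 of the 10 enzymes fell against C57Bl6, 1 rose and 1 did not pass the test. Over all probe sets 20.2% fell and 27.0% rose in that comparison, and in the brightest 10% of them 47.2% fell and 12.9% rose. In alb-SREBP-1a liver, 2 of the 10 fell, none rose and 8 did not pass, where 3.98% of all probe sets fell and 6.77% rose (14.5% and 14.1% in the brightest 10%). Between the lines, 4 fell in alb-SREBP-1a∆P, none rose and 6 did not pass, where 21.4% of all probe sets fell and 22.8% rose. There the 4 of 10 is no larger a share than the 46.1% of the brightest 10% that fell. By limma's p without adjustment, and by the methods' t-test, no enzyme rose in alb-SREBP-1a or between the lines either. The falls in alb-SREBP-1a did depend on this choice. Without adjustment Cyp27a1, Hsd3b7, Akr1d1, Amacr and Baat also passed the 0.05 threshold as lower there, beside Cyp39a1 and Slc27a5. The methods' t-test gave 3 lower enzymes there, with Amacr added. Between the lines neither choice added a fall to the 4. The median change of the 10 was −0.21 in alb-SREBP-1a mice, −0.54 in the mutated line and −0.22 between the lines, where it turned to 0.03 after cyclic loess. The 2 comparisons with C57Bl6 share their control arrays.

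**Figure D1:**
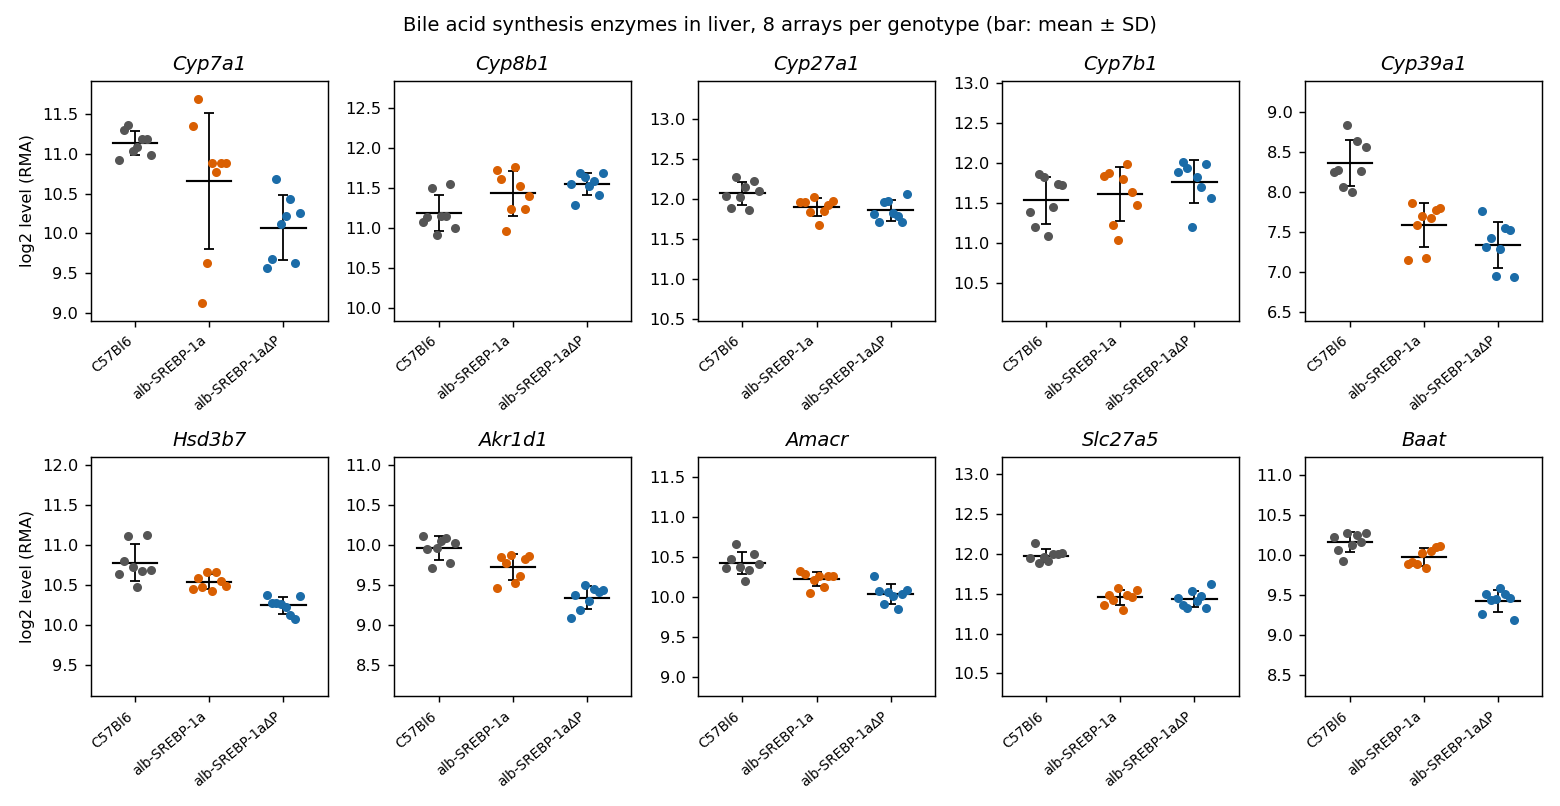
Log2 level (RMA) of each of the 10 enzymes on every array, in 1 panel per gene and 1 column per genotype (grey C57Bl6, orange alb-SREBP-1a, blue alb-SREBP-1a∆P), with the mean ± SD over 8 mice as bars and panels that all span the same 3 log2 units. Slc27a5 is lower in both lines than on any control array, Baat and Akr1d1 are lowest in alb-SREBP-1a∆P, and Cyp7a1 runs from 9.13 to 11.68 among alb-SREBP-1a mice.

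Cyp7a1, the rate-limiting enzyme, lay between 10.92 and 11.35 in C57Bl6, with a median of 11.14. In alb-SREBP-1a∆P it lay between 9.57 and 10.68, with a median of 10.16. Every alb-SREBP-1a∆P array was below every C57Bl6 array. The fall was 1.06 ± 0.15 on the log2 scale, 2.08-fold (adjusted p = 2.80e-05). In alb-SREBP-1a the 8 arrays read 11.34, 11.68, 9.13, 9.63, 10.88, 10.77, 10.88 and 10.89, in the order of the replicate numbers. These values covered more than the range of both other genotypes together: replicate 2 was above every control, 6 arrays were below every control, and replicates 3 and 4 stood well under the rest. The SD was 0.85 in alb-SREBP-1a mice, against 0.41 in the mutated line and 0.15 in C57Bl6. The mean alb-SREBP-1a change was −0.48 ± 0.28 and did not pass (adjusted p = 0.315, 95% interval −1.07 to 0.11). The mean change between the lines was −0.58 ± 0.31 and did not pass either (adjusted p = 0.132, −1.23 to 0.07). Single arrays moved both values, as alb-SREBP-1a replicates left out in turn show. Without replicate 3 the alb-SREBP-1a change was −0.26, and the difference between the lines was −0.80 and passed. Without replicate 4 these were −0.33 and −0.73, and without replicates 1 and 2 together −0.77 and −0.29, and none of these 4 passed. In order of mean level, C57Bl6 at 11.13, alb-SREBP-1a at 10.65 and alb-SREBP-1a∆P at 10.07, neither pair of neighbours differed beyond its spread over all 8 arrays, while the ends did. In whole liver RNA, fewer cells of a type and less RNA per cell cannot be told apart.

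Cyp8b1, the hydroxylase of cholic acid synthesis whose promoter stretch is printed above, was the enzyme that rose. It ranged from 10.92 to 11.55 in C57Bl6 (median 11.14), from 10.96 to 11.76 in alb-SREBP-1a (median 11.46) and from 11.29 to 11.69 in alb-SREBP-1a∆P (median 11.57). The groups overlapped, with 4 of 8 alb-SREBP-1a∆P arrays above every control. It rose by 0.36 ± 0.10 in alb-SREBP-1a∆P (adjusted p = 0.00624), a call that was lost when each array was centred on its median (0.20). The alb-SREBP-1a change was 0.25 ± 0.12 (adjusted p = 0.226, 95% interval −0.01 to 0.50). The lines differed by 0.11 ± 0.11 (adjusted p = 0.404, −0.12 to 0.35), and by −0.05 with centred arrays. In alb-SREBP-1a∆P liver Cyp7a1 was thus lower and Cyp8b1 higher, each against its own level in C57Bl6.

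The enzymes of the alternative route did not move as a group. Cyp27a1, the mitochondrial sterol hydroxylase, ranged from 11.86 to 12.28 in C57Bl6 (median 12.07), from 11.68 to 12.03 in alb-SREBP-1a (median 11.94) and from 11.72 to 12.06 in alb-SREBP-1a∆P (median 11.82). All groups overlapped, although 5 of 8 alb-SREBP-1a∆P arrays were below every control. It fell by 0.21 ± 0.08 in alb-SREBP-1a∆P (adjusted p = 0.0358), beside a median of −0.20 in the brightest 10% of probe sets. The call was lost after quantile normalization (−0.13), after cyclic loess (−0.07) and with array weights (−0.19). Its alb-SREBP-1a change was −0.17 ± 0.07 (adjusted p = 0.159, 95% interval −0.32 to −0.02 before adjustment), and the difference between the lines was −0.04 ± 0.07 (adjusted p = 0.634, −0.20 to 0.11). That difference was 0.04 after quantile normalization, 0.07 after cyclic loess and −0.21 with centred arrays, where it passed.

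Cyp7b1, the oxysterol hydroxylase that follows Cyp27a1, was the enzyme with no call in any of the 3 comparisons. It ranged from 11.09 to 11.86 in C57Bl6 (median 11.59), from 11.04 to 11.99 in alb-SREBP-1a (median 11.72) and from 11.21 to 12.01 in alb-SREBP-1a∆P (median 11.86). The groups overlapped over nearly their whole range. The changes were 0.08 ± 0.15 in alb-SREBP-1a (adjusted p = 0.807, 95% interval −0.24 to 0.39) and 0.23 ± 0.14 in alb-SREBP-1a∆P (adjusted p = 0.175, −0.06 to 0.52). Between the lines it differed by 0.15 ± 0.15 (adjusted p = 0.403, −0.16 to 0.46). These intervals reach further above 0 than below it. The alb-SREBP-1a∆P change did pass after cyclic loess (0.38) and without alb-SREBP-1a∆P replicate 4 (0.31), whose level of 11.21 was the lowest of its group. The other changes turned sign, to −0.01 between the lines with centred arrays and to −0.01 in alb-SREBP-1a without its replicates 1 and 2.

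Cyp39a1, the hydroxylase of the brain-derived oxysterol, fell in both lines. It ranged from 8.0 to 8.84 in C57Bl6 (median 8.27), from 7.14 to 7.86 in alb-SREBP-1a (median 7.68) and from 6.94 to 7.76 in alb-SREBP-1a∆P (median 7.37). No array of either line reached the lowest control. The fall in alb-SREBP-1a∆P was 1.02 ± 0.14, 2.03-fold (adjusted p = 2.34e-05), and that in alb-SREBP-1a was 0.78 ± 0.14 (adjusted p = 0.00125). Between the lines the difference was −0.24 ± 0.14 (adjusted p = 0.155, 95% interval −0.53 to 0.05). That difference passed with centred arrays (−0.41) and with array weights (−0.34), and was 0.04 after cyclic loess.

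**Figure D2:**
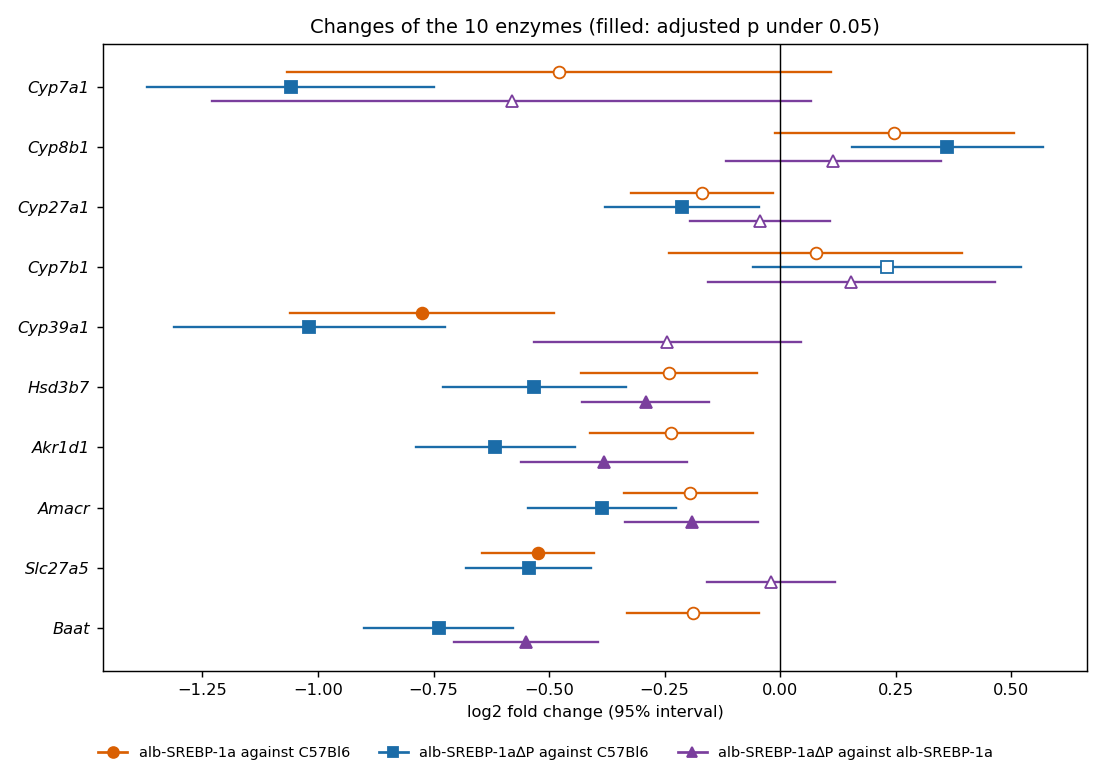
Log2 fold change of each enzyme with its 95% interval from limma (orange circles alb-SREBP-1a against C57Bl6, blue squares alb-SREBP-1a∆P against C57Bl6, purple triangles the mutated line against alb-SREBP-1a), filled where the adjusted p is under 0.05. Of the blue squares 8 are filled to the left of 0 and 1 to the right, while only Cyp39a1 and Slc27a5 have filled orange circles.

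The ring-modifying enzymes were lowest in alb-SREBP-1a∆P. Hsd3b7, the dehydrogenase that acts on the products of all routes, ranged from 10.48 to 11.13 in C57Bl6 (median 10.70), from 10.42 to 10.67 in alb-SREBP-1a (median 10.52) and from 10.08 to 10.38 in alb-SREBP-1a∆P (median 10.27). The alb-SREBP-1a∆P arrays lay below all arrays of both other genotypes. It fell by 0.53 ± 0.09 against C57Bl6 (adjusted p = 0.000246) and by 0.29 ± 0.07 against alb-SREBP-1a (adjusted p = 0.00251). The alb-SREBP-1a change was −0.24 ± 0.09 and did not pass (adjusted p = 0.101). Its SD was 0.23 in C57Bl6, against 0.09 and 0.10 in the lines, and C57Bl6 replicates 3 and 7 were among the arrays farthest from the centre.

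Akr1d1, the reductase that gives bile acids their bent ring and whose promoter stretch is printed above, ranged from 9.71 to 10.12 in C57Bl6 (median 9.998). It ranged from 9.47 to 9.88 in alb-SREBP-1a (median 9.80) and from 9.10 to 9.51 in alb-SREBP-1a∆P (median 9.39). All alb-SREBP-1a∆P arrays were below all controls, and 7 of 8 were below all alb-SREBP-1a arrays. It fell by 0.62 ± 0.08 in alb-SREBP-1a∆P against C57Bl6 (adjusted p = 1.74e-05) and by 0.38 ± 0.08 against alb-SREBP-1a (adjusted p = 0.00236). The alb-SREBP-1a change of −0.24 ± 0.08 was just short of the threshold (adjusted p = 0.0819), and passed after cyclic loess (−0.24), without the dim probe sets (−0.24) and with array weights (−0.23).

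The last steps of the pathway, on the side chain and its conjugation, all fell in alb-SREBP-1a∆P. Amacr, the racemase that readies the side chain for peroxisomal oxidation, ranged from 10.20 to 10.66 in C57Bl6 (median 10.39), from 10.05 to 10.33 in alb-SREBP-1a (median 10.26) and from 9.85 to 10.26 in alb-SREBP-1a∆P (median 10.04). Of the alb-SREBP-1a∆P arrays 7 were below every control, and 4 were below every alb-SREBP-1a array. It fell by 0.39 ± 0.08 against C57Bl6 (adjusted p = 0.000661), a call lost after cyclic loess (−0.17). Against alb-SREBP-1a it fell by 0.19 ± 0.07 (adjusted p = 0.0319). The brightest 10% of probe sets had a median of −0.20 in each of these comparisons, so that the fall against alb-SREBP-1a was near that median. The alb-SREBP-1a change was −0.19 ± 0.07 (adjusted p = 0.0801), and passed without the dim probe sets, with a variance trend and by the methods' t-test (each −0.19).

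Slc27a5, the ligase that joins bile acids to coenzyme A, was lower in both lines by amounts whose difference did not pass. It ranged from 11.88 to 12.13 in C57Bl6 (median 11.98), from 11.30 to 11.57 in alb-SREBP-1a (median 11.47) and from 11.32 to 11.62 in alb-SREBP-1a∆P (median 11.42). Neither line overlapped the controls, and the lines overlapped each other throughout. The falls were 0.52 ± 0.06 in alb-SREBP-1a (adjusted p = 2.06e-05) and 0.54 ± 0.06 in alb-SREBP-1a∆P (adjusted p = 5.77e-06). The lines differed by −0.02 ± 0.07 (adjusted p = 0.817), with a 95% interval of −0.16 to 0.12, and by 0.06 after quantile normalization and 0.11 after cyclic loess. Its SDs were 0.08 in C57Bl6, 0.09 in alb-SREBP-1a mice and 0.11 in the mutated line.

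Baat, the transferase that adds taurine or glycine, had its fall in the mutated line. It ranged from 9.93 to 10.28 in C57Bl6 (median 10.20), from 9.83 to 10.11 in alb-SREBP-1a (median 9.97) and from 9.18 to 9.59 in alb-SREBP-1a∆P (median 9.46). All 8 alb-SREBP-1a∆P arrays were below every array of both other genotypes. It fell by 0.74 ± 0.08 against C57Bl6, 1.67-fold (adjusted p = 1.62e-06), and by 0.55 ± 0.07 against alb-SREBP-1a (adjusted p = 0.000128). The alb-SREBP-1a change was −0.19 ± 0.07 (adjusted p = 0.0860), and passed without the dim probe sets and after cyclic loess (each −0.19). Baat was the enzyme whose difference between the lines passed under each scaling run. Slc27a5 and Baat, neighbours in the pathway, thus differed in pattern: the first separated both lines from C57Bl6 and the second separated alb-SREBP-1a∆P from both.

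The alb-SREBP-1a∆P falls of Cyp7a1, Cyp39a1, Hsd3b7, Akr1d1, Slc27a5 and Baat against C57Bl6 passed in every alternative run. Against alb-SREBP-1a, the calls of Hsd3b7, Akr1d1 and Amacr were lost after quantile normalization (−0.16, −0.22 and −0.06) and after cyclic loess (−0.10, −0.14 and 0.02), and Baat alone still passed. The call of Amacr was also lost without alb-SREBP-1a replicates 1 and 2 (−0.16). Which scaling fits these arrays was not tested.

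**Figure D3:**
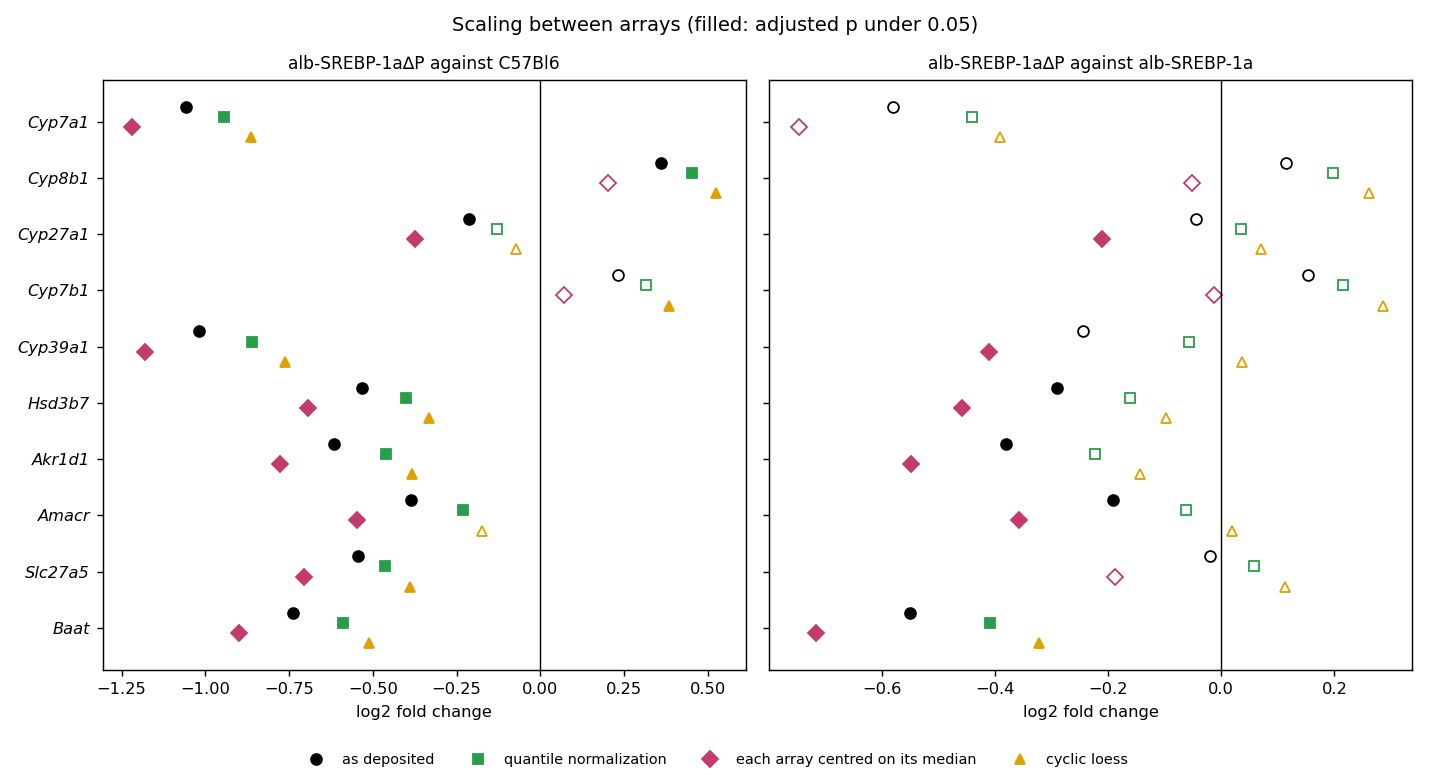
Log2 fold change of each enzyme in alb-SREBP-1a∆P against C57Bl6 (left) and against alb-SREBP-1a (right) as deposited (black circles), after quantile normalization (green squares), centred on array medians (red diamonds) and after cyclic loess (yellow triangles), filled where the adjusted p is under 0.05. On the left 6 of the 10 enzymes are filled and left of 0 under all 4 scalings, and on the right only Baat is, from −0.55 as deposited.

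**Figure D4:**
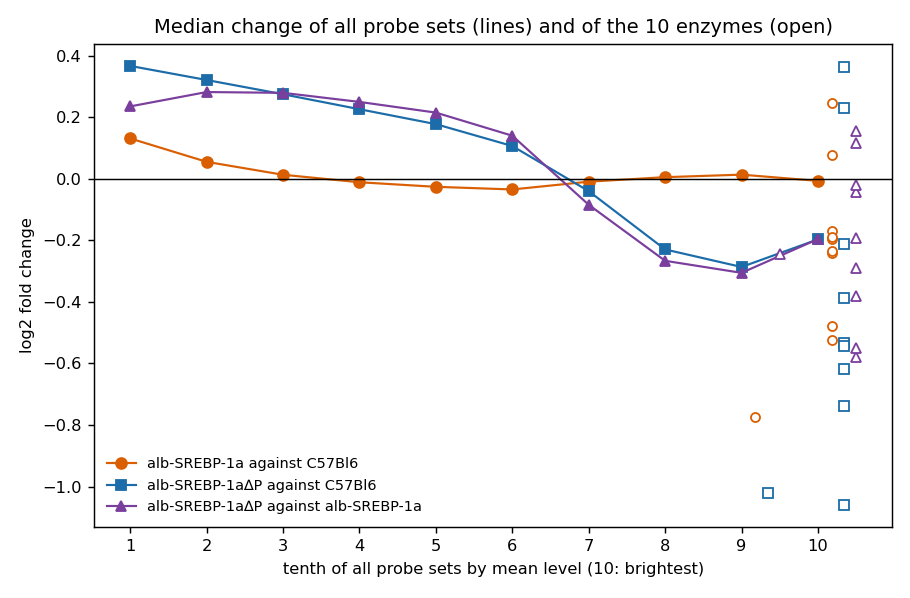
Median log2 fold change of all probe sets in 10 equal bins of mean level (lines with filled points, bin 10 the brightest) and of the 10 enzymes in their own bin (open points, set to its right), in the colours of the 3 comparisons. Both comparisons of alb-SREBP-1a∆P run from above 0 in dim probe sets to below 0 from bin 7 on, lowest in bin 9 (−0.29 and −0.31) and at −0.20 in bin 10, and the enzymes lie on both sides of these medians.

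Further genes of the pathway formed a second list of 11. In alb-SREBP-1a 4 fell and 7 did not pass (median −0.12), and this count was 4 under each scaling. The 36.4% that fell stood beside 3.98% of all probe sets and 14.5% of the brightest 10%. In alb-SREBP-1a∆P 7 fell, 1 rose and 3 were not called (median −0.30), with 5 to 9 falling under the scalings. The 63.6% that fell stood beside 47.2% of the brightest 10% of probe sets. Acnat1, a peroxisomal acyltransferase that can conjugate taurine to fatty acids, fell by 0.91 ± 0.10 in alb-SREBP-1a mice and by 1.02 ± 0.11 in alb-SREBP-1a∆P mice. The next by smallest p in alb-SREBP-1a∆P were the peroxisomal transporter Abcd3, which fell by 0.64 ± 0.08, the multifunctional enzyme Hsd17b4 (by 0.53 ± 0.10) and the ligase Slc27a2 (by 0.41 ± 0.08). In alb-SREBP-1a Abcd3 fell by 0.30 ± 0.08, Slc27a2 by 0.26 ± 0.07 and Cyp2c70, which makes the muricholic acids of mice, by 0.66 ± 0.11. Between the lines 4 fell, 2 rose and 5 were not called (median −0.15), and 2 to 8 fell under the scalings. The 36.4% that fell was below the 46.1% of the brightest 10% of probe sets. That 10% is a yardstick for most of this list only: Acot8 and Acnat2 lay in bin 8 by brightness, Cyp46a1 in bin 6 and Ch25h in bin 3. Between the lines 51.6% of bin 8, 11.4% of bin 6 and 1.8% of bin 3 fell. In that comparison Hsd17b4 fell by 0.50 ± 0.08 and Abcd3 by 0.34 ± 0.07 as deposited, and both calls held under every scaling. The calls of Cyp2c70 (0.43 ± 0.11, higher in alb-SREBP-1a∆P) and of the thioesterase Acot8 (−0.25 ± 0.07) depended on scaling. Cyp2c70 did not pass with centred arrays (0.26), nor Acot8 after quantile normalization (−0.10) or cyclic loess (−0.02).

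Of 11 regulators of bile acid synthesis, 1 rose, 1 fell and 9 did not pass in alb-SREBP-1a. Of the list 9.09% thus rose and 9.09% fell. In the brightest 10% of probe sets 14.1% rose and 14.5% fell, and in the 10% after it 13.3% and 7.76%. In the mutated line 5 fell and 6 did not pass against C57Bl6 (3 to 7 fell under the scalings), with a median of −0.23 that turned to 0.03 after cyclic loess. Between the lines 7 fell and 4 did not pass (median −0.35), and 2 to 9 fell under the scalings. The 45.5% that fell against C57Bl6 was near the 47.2% of bin 10 and below the 53.3% of bin 9 in the plot of change by brightness. The 63.6% between the lines was above the 46.1% of bin 10 and near the 62.3% of bin 9. These counts are thus no result about the regulators. Nr1h4, the bile acid receptor FXR, fell by 0.52 ± 0.10 in alb-SREBP-1a∆P against C57Bl6 and by 0.61 ± 0.09 against alb-SREBP-1a. The pregnane X receptor gene Nr1i2 fell by 0.95 ± 0.11 and by 0.60 ± 0.11 in these comparisons, and by 0.36 ± 0.10 in alb-SREBP-1a against C57Bl6, where it did not pass with centred arrays (−0.35). Prox1, a corepressor, fell by 0.74 ± 0.16 in alb-SREBP-1a∆P against C57Bl6. Fgfr4, the hepatocyte receptor for the intestinal signal, fell by 0.37 ± 0.09 and by 0.35 ± 0.06 in the mutated line, against C57Bl6 and alb-SREBP-1a, and its partner Klb fell by 0.41 ± 0.11 between the lines. After quantile normalization and cyclic loess these 3 calls were lost (Fgfr4 −0.19 and −0.11 against C57Bl6, −0.14 and −0.07 against alb-SREBP-1a, Klb −0.21 and −0.12). Ppara, a lipid-sensing receptor, rose by 0.24 ± 0.08 in alb-SREBP-1a, a call lost after quantile normalization (0.23) and with centred arrays (0.25).

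Of 9 measured clock genes, several of which are known to act on Cyp7a1, 6 rose, 2 fell and 1 did not pass in each line against C57Bl6, and 5 to 7 rose under the scalings. Most of them lay in bin 9 of the plot of change by brightness. There 13.3% rose and 7.76% fell in alb-SREBP-1a, and 10.5% rose and 53.3% fell in alb-SREBP-1a∆P, beside 66.7% and 22.2% of the list in each line. Nr1d1, the repressor REV-ERBα, rose by 3.20 ± 0.12 in alb-SREBP-1a mice and by 3.50 ± 0.10 in the mutated line. Its relative Nr1d2 rose by 1.31 ± 0.14 and 1.34 ± 0.12 and the D-box activator Dbp by 1.32 ± 0.22 and 1.84 ± 0.14. The D-box repressor Nfil3 fell by 0.60 ± 0.08 in alb-SREBP-1a mice and by 1.27 ± 0.14 in the mutated line. Between the lines 2 rose, 3 fell and 4 did not pass. The 22.2% that rose was near the 22.8% of all probe sets but above the 5.88% of bin 9. Of the genes that rose, Nr1d1 lay in bin 10, where 4.58% rose, and Bhlhe41 in bin 3, where 38.3% rose. The 33.3% that fell was below the 62.3% of bin 9. None of the 4 changes named next passed under every scaling. Nfil3 fell by 0.67 ± 0.15 (not called after cyclic loess, −0.40) and Hlf by 0.23 ± 0.08 (0.05 after cyclic loess). Bhlhe41 rose by 0.52 ± 0.17 (not called under any of the 3 scalings) and Nr1d1 by 0.30 ± 0.10 (not called with centred arrays, 0.13). The mice were killed at a single time of day, so that a shift in phase and a change in level cannot be told apart.

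Of 13 transporters of bile acids and biliary lipids, 1 fell and 12 did not pass in alb-SREBP-1a, where the bile salt export pump Abcb11 fell by 0.29 ± 0.09 (not called with centred arrays, −0.28). The 7.69% that fell was below the 14.5% of the brightest 10% of probe sets. In the mutated line 6 fell and 7 did not pass against C57Bl6, and 3 to 8 fell under the scalings. Abcb11 fell by 0.78 ± 0.10 there and the phospholipid carrier Abcb4 by 0.45 ± 0.09. The basolateral exporter Abcc3 fell by 0.63 ± 0.16 (not called after cyclic loess, −0.41) and the uptake carrier Slco1a4 by 0.72 ± 0.26 (not called after quantile normalization, −0.57, or cyclic loess, −0.46). The 46.2% of the list that fell was near the 47.2% of the brightest 10% of probe sets. Most of the list lay there, but Abcc4 and Slc51b lay in bin 6 by brightness and Slc51a in bin 4, where 12.5% and 3.88% fell. Between the lines 8 fell, 1 rose and 4 did not pass, and 1 to 10 fell under the scalings. The 61.5% that fell was above the 46.1% of the brightest 10% of probe sets and near the 62.3% of the 10% after it. This count is thus no result about the transporters. Abcb11 fell there by 0.49 ± 0.10 as deposited, and its call held under each scaling.

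Markers of liver cells moved beside these results. Over all probe sets 3.98% fell and 6.77% rose in alb-SREBP-1a against C57Bl6. The shares were 20.2% and 27.0% in alb-SREBP-1a∆P against C57Bl6, and 21.4% and 22.8% between the lines. Of 5 measured hepatocyte markers 2 fell and 1 rose in alb-SREBP-1a, while 4 fell and 1 rose in alb-SREBP-1a∆P. All lay in the brightest 10% of probe sets, where 14.5% fell and 14.1% rose in alb-SREBP-1a, and 47.2% and 12.9% in alb-SREBP-1a∆P. Their median change was −0.10 in alb-SREBP-1a, beside −0.01 in that 10%, and −0.16 in alb-SREBP-1a∆P, beside −0.20. Their mean log2 level ran from 13.63 to 13.87 in C57Bl6, from 13.52 to 13.71 in alb-SREBP-1a and from 13.41 to 13.59 in alb-SREBP-1a∆P. Of 6 Kupffer cell or macrophage markers 4 rose in alb-SREBP-1a (mean levels of 8.16 to 8.74, against 7.74 to 8.28 in C57Bl6). In alb-SREBP-1a∆P 2 of them rose (7.96 to 8.76). Of 2 measured markers of periportal hepatocytes 2 fell in each line, from 12.63 to 12.99 in C57Bl6 to 12.26 to 12.46 and 12.04 to 12.31. Of 3 pericentral markers 1 rose in alb-SREBP-1a, and 1 rose and 1 fell in alb-SREBP-1a∆P (12.01 to 12.45 in C57Bl6, 12.20 to 12.54 and 12.11 to 12.34). Of 4 sinusoidal markers 1 rose in alb-SREBP-1a and 1 fell in alb-SREBP-1a∆P (7.56 to 8.07, 7.74 to 8.04 and 7.59 to 7.98). Of 4 stellate cell markers none passed in alb-SREBP-1a and 1 fell in alb-SREBP-1a∆P (8.33 to 8.47, 8.46 to 8.63 and 8.08 to 8.47). None of 4 bile duct markers passed in either line (5.58 to 6.01, 5.52 to 5.83 and 5.602 to 5.83), and of 4 lymphocyte markers 1 rose in alb-SREBP-1a∆P (4.68 to 5.01, 4.73 to 5.15 and 4.70 to 5.34). Between the lines 3 Kupffer cell, 2 sinusoidal, 2 stellate, 1 pericentral and 1 periportal markers fell, and no marker rose in the deposited values. In that comparison 46.1% of the brightest 10% of probe sets fell, and 62.3% of the 10% after it. The markers are few per cell type, and these falls are not read as a result about the cells. Scaling moved most of these counts. Between the lines 0 Kupffer cell and 0 stellate markers fell after quantile normalization and cyclic loess, against 5 and 4 with centred arrays. There 0 hepatocyte markers fell, except with centred arrays (4), and the falls ran from 0 to 3 of the sinusoidal, 0 to 3 of the pericentral and 0 to 2 of the periportal markers, with 1 sinusoidal marker higher after cyclic loess. Under each scaling 1 lymphocyte marker fell between the lines and 1 bile duct marker fell in the mutated line against C57Bl6. In that comparison 2 hepatocyte markers fell after quantile normalization and cyclic loess in place of 4, between 1 and 4 Kupffer cell markers rose, and 0 to 3 stellate and 1 to 3 sinusoidal markers fell. The 2 periportal falls of each line against C57Bl6 held under all 3 scalings. The part of cell composition in the enzymes' changes was not tested.

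The enzymes were also compared with each other among mice, after each genotype's mean had been taken off. Of 45 pairs, 25 had a positive Pearson r and 2 passed after Benjamini-Hochberg adjustment over the 45, by permutation within genotypes. All levels come from the same 24 arrays, so that array quality and scaling are shared between the genes of a pair. Cyp7a1 and Cyp8b1 had r = 0.699 (permutation p = 0.00016, adjusted p = 0.0072) and Spearman's rho = 0.666 (permutation p = 0.00029, adjusted p = 0.0131), n = 24. Within the genotypes r was 0.666 in C57Bl6, 0.815 in alb-SREBP-1a mice and 0.731 in the mutated line. Without alb-SREBP-1a replicates 3 and 4, the mice farthest out in Cyp7a1, it was 0.557. The mice with more Cyp7a1 than their group thus had more Cyp8b1, although alb-SREBP-1a∆P as a group had less of the one and more of the other.

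Hsd3b7 and Amacr had r = 0.648 (permutation p = 0.0018, adjusted p = 0.0405) and rho = 0.554 (permutation p = 0.00897, adjusted p = 0.135), n = 24. The relation did not hold within alb-SREBP-1a (r = −0.233, against 0.933 in C57Bl6 and 0.645 in alb-SREBP-1a∆P), and without C57Bl6 replicates 3 and 7 it was 0.509. Cyp7b1 and Akr1d1 ran in opposite directions at r = −0.591 (permutation p = 0.00467, adjusted p = 0.0701), with like values within each genotype (−0.595, −0.593 and −0.585). Cyp7a1 and Cyp7b1, which begin or continue the separate routes, had r = 0.416 (permutation p = 0.07, adjusted p = 0.185), and r within genotypes of 0.046, 0.829 and −0.286. More pairs passed after quantile normalization (6) and cyclic loess (7), with Cyp7a1 and Cyp8b1 among them and also Cyp7b1 and Akr1d1 (r = −0.606 and −0.576).

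**Figure D5:**
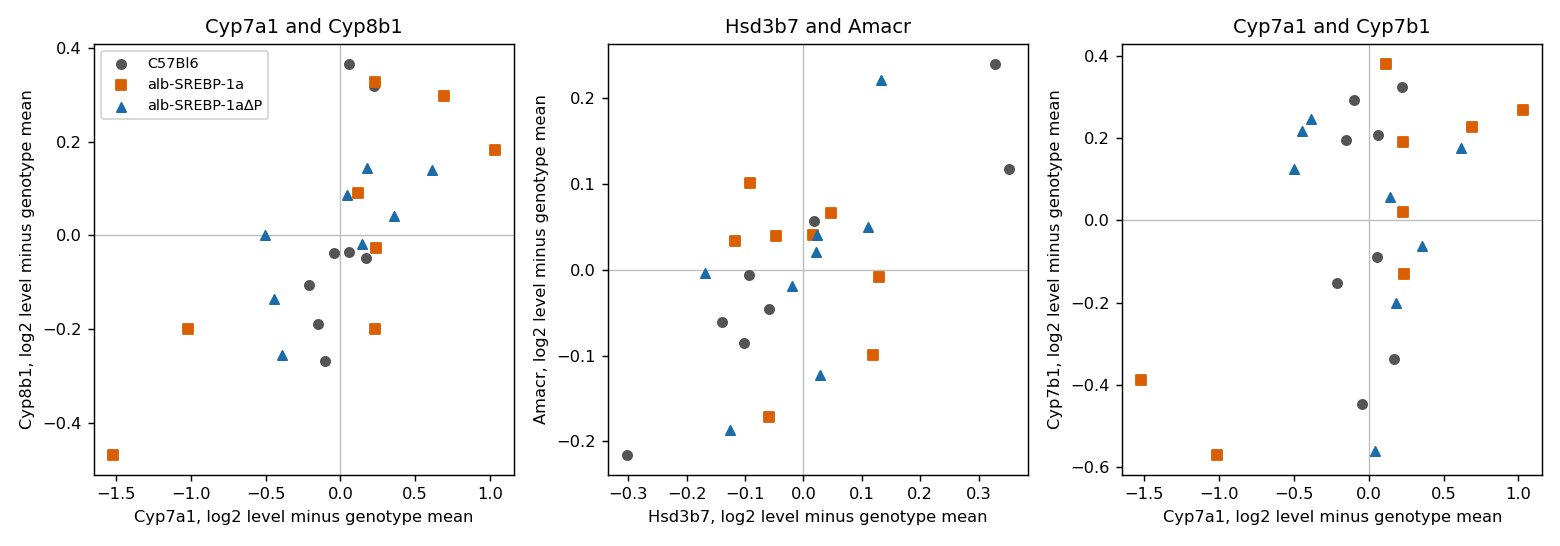
Levels of 2 enzymes in each mouse as log2 level minus the genotype mean, for Cyp7a1 and Cyp8b1 (left), Hsd3b7 and Amacr (centre) and Cyp7a1 and Cyp7b1 (right), with grey circles for C57Bl6, orange squares for alb-SREBP-1a and blue triangles for alb-SREBP-1a∆P. The left panel rises in all 3 genotypes (r = 0.699 over 24 mice), the centre panel does not in alb-SREBP-1a, and the low points at the far left are alb-SREBP-1a replicates 3 and 4.

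Ranked by the same genotype-centred r over 24 arrays, the genes most like Cyp7a1 among 19937 others were Dnmt3a, a DNA methyltransferase, at 0.818, Gpcpd1, a phosphodiesterase, at 0.817 and Msmo1, a cholesterol synthesis enzyme, at 0.805. They were picked as the highest of a long list and carry no test. Within the genotypes the r of Dnmt3a was 0.809 in C57Bl6, against 0.903 and 0.456 in the lines. That of Gpcpd1 was −0.375 in C57Bl6, against 0.949 and 0.696 in the lines. That of Msmo1 was 0.203 in C57Bl6, against 0.916 and 0.809.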

How the data were processed

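Liver RNA (150 ng per array) of 24 mice, 8 per genotype, was hybridised to Affymetrix Mouse Gene 1.0 ST arrays. The authors summarised probes by RMA in Affymetrix Expression Console and deposited log2 values of 35556 probe sets without a missing value (0.833 to 15.0). Probe sets were named by GEO's platform annotation: 21789 carry 1 symbol, 1621 several and 12146 none. Per gene the probe set with the highest mean over 24 arrays was used. Groups come from the sample labels. The enzymes, further lists and markers were chosen from general knowledge with earlier results of these data known, and lists are described by counts and medians. Named genes are all 10 enzymes and up to 4 genes with the smallest p per list and comparison.

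Each comparison was fitted on all probe sets as 8 against 8 arrays with limma 3.58.1 in R 4.3.3 (lmFit, eBayes, Benjamini-Hochberg), first tested on simulated data. Since 1 array is 1 mouse, p-values reflect the spread among mice. Pairs of enzymes were tested by 100000 permutations within genotypes, two-sided. The number of arrays limits precision. The labels give no pairing by replicate number, and the samples were treated as unpaired. Alternatives were a joint fit, 3 scalings, a filter removing probe sets under the median level, a variance trend, array weights, 1 probe set per gene, a replicate block, the methods' t-test and the removal of arrays that had stood apart in earlier results. Sequences are RefSeq, GRCm38.p6, searched with Python 3.11.15. No sequence of the proteins was used here.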

Additional observations from a re-analysis of the deposited data

How the results depend on the processing

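Of 340 changes of single enzymes recomputed under the alternatives, 307 kept direction and side of the threshold, 11 lost and 13 gained a call, and 9 turned sign. In alb-SREBP-1a against C57Bl6, 2 lower enzymes became 4 after cyclic loess and 5 when dim probe sets were removed, and Cyp7b1 turned to −0.0062 without alb-SREBP-1a replicates 1 and 2. In alb-SREBP-1a∆P against C57Bl6, 1 higher enzyme became 0 with each array centred on its median (Cyp8b1 did not pass), 2 after cyclic loess and 2 without alb-SREBP-1a∆P replicate 4, and lower enzymes stayed between 6 and 8. Between the lines, 4 lower enzymes became 1 after quantile normalization and 1 after cyclic loess. There quantile normalization turned Cyp27a1 to 0.035 and Slc27a5 to 0.059, centring turned Cyp8b1 to −0.052 and Cyp7b1 to −0.013, and cyclic loess turned Cyp27a1 to 0.071, Cyp39a1 to 0.036, Amacr to 0.018, Slc27a5 to 0.11 and the clock gene Hlf to 0.047. Pairs that passed rose from 2 to 6 after quantile normalization and 7 after cyclic loess. The cause was not tested. Removal of dim probe sets, which leaves 17778 to test, gave 2919 higher calls in alb-SREBP-1a∆P against C57Bl6 and 2488 between the lines. With the replicate block the enzyme counts were 2 lower and 0 higher, 8 lower and 1 higher, and 4 lower and 0 higher, as without it. Same-numbered arrays correlated between −0.116 and 0.279 in their deviations from the group mean. The same-numbered array was the best match for 2 of 8 arrays in alb-SREBP-1a against C57Bl6. This held for 3 of 8 in alb-SREBP-1a∆P against C57Bl6 and 2 of 8 between the lines. Whether the numbers mark a shared handling was not tested. For Cyp7a1 the alb-SREBP-1a arrays were also left out in turn, outside the 340, which gave −0.63 to −0.26 in alb-SREBP-1a and −0.80 to −0.43 between the lines, where it passed without replicate 3. These removals and the scalings of the further lists were chosen after seeing the data. The mean over several probe sets of a gene was not run, since each enzyme has 1. Signal over background was not part of the deposited values, so that a lower bound of detection cannot be given.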
